A study of Mus musculus with 8 samples.

Results

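Gene-desert regions were defined as the rows of the deposited table that its annotation calls intergenic and that lie more than 100 kb from the nearest transcription start site (TSS) given there. They numbered 7956 of 112137 regions, and of 30355 intergenic ones. H3K27ac, acetylation of histone H3 at lysine 27, was profiled by CUT&Tag, in which an antibody tethers a transposase that cuts and tags the DNA around the mark. The 8 libraries from mouse embryonic stem cells formed 4 groups of 2: formative DKO, formative WT, naive DKO and naive WT. DKO cells lacked MLL3 and MLL4, WT cells were the R1 line with a wild-type genotype, and no line was named for the DKO cells. Formative cells had been without LIF2i, the naive culture additives, for 63 hours. Replicates were grown and prepared separately, but the table holds 1 pooled H3K27ac value per group, so values below carry no SD, and no DKO difference has a replicate check.

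Enhancers are stretches of DNA that bind transcription factors and raise transcription of genes that may lie far along the chromosome. Gene deserts are long intervals without protein-coding genes, and some hold enhancers of developmental genes at their edges. H3K4me1, monomethylation of histone H3 at lysine 4, marks enhancers and is written there mainly by the methyltransferases MLL3 (gene Kmt2c) and MLL4 (gene Kmt2d), while H3K27ac is added by the acetyltransferases p300 and CBP and marks active enhancers and promoters. Gene deserts also hold much transposon and satellite sequence, which the genome assembly gives in soft-masked (lower-case) letters. The series addresses how far H3K27ac and H3K4me1 depend on MLL3 and MLL4 during the move out of the naive state.

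The following sequences are the central 300 bases of 8 gene-desert regions described below, read from the RefSeq GRCm38 (mm10) genome and named by the nearest gene in the table. Capitals mark matches, on either strand, to 1 of 10 short motifs. They were the octamer ATGCAAAT bound by POU factors, TCAAGGTCA for the nuclear receptor ESRRB, and GGGTGTGG for Krüppel-like factors. For the Wnt effectors of the TCF/LEF family the letters were TTTGATC, for the homeobox factor OTX2 they were TAATCC, and for AP-1 dimers TGANTCA, with N for any base. For zinc-finger factors of the GATA family the letters AGATAA were used, for the TEAD factors of the Hippo pathway GGAATG, for grainyhead-like factors (GRHL) AACCGGTT, and for SOX factors ACAATGG. The Sall1 region is the member closest to that gene's TSS, and its OTX2 and GATA letters overlap.
Sall1, chr8:89157261-89157560, plus strand: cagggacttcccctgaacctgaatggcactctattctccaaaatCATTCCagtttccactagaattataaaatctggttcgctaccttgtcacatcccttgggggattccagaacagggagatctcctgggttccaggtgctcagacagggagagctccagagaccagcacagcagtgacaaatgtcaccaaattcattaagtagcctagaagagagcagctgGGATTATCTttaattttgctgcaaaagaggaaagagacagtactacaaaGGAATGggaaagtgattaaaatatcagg
Of the regions nearest to Nr5a2, the pair with the smallest adjusted p between the WT states are shown, the first with an OTX2 match and the second with KLF and GATA matches.
Nr5a2, chr1:137418284-137418583, plus strand: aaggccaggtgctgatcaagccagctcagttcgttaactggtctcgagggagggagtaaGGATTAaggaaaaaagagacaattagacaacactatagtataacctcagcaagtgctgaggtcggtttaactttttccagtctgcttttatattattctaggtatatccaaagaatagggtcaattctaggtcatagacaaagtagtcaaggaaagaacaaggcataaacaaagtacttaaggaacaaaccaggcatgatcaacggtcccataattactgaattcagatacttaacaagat
Nr5a2, chr1:137174199-137174498, plus strand: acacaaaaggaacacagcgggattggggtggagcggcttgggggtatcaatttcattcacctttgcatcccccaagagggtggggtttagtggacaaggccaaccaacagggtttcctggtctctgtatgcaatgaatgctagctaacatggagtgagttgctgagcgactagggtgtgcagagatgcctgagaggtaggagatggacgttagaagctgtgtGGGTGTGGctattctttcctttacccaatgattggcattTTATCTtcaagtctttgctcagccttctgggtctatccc
The Mycn region had the smallest adjusted p among those of that gene and held an AP-1 match.
Mycn, chr12:12820230-12820529, plus strand: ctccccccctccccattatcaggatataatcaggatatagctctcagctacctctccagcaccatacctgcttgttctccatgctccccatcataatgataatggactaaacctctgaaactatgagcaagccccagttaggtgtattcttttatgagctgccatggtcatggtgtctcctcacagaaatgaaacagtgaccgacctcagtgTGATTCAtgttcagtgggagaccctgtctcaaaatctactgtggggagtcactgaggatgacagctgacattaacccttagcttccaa
Naf1 and Nr2f2 name the regions with the lowest DKO values relative to WT in the naive and in the formative state by the naming rule.
Naf1, chr8:67086605-67086904, plus strand: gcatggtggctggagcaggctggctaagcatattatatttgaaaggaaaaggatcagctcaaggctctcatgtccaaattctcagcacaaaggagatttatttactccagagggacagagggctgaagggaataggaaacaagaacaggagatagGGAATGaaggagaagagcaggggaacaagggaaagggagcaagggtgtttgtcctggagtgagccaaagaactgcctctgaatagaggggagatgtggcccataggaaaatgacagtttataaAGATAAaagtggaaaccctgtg
Nr2f2, chr7:70584109-70584408, plus strand: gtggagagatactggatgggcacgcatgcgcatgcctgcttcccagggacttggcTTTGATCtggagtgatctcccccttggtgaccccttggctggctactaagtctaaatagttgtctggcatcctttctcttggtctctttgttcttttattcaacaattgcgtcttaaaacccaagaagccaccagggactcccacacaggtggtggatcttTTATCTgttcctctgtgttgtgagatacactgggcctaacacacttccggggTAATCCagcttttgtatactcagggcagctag
The Slitrk5 region had low H3K4me1 in DKO cells of both states and held an octamer, a TCF/LEF and a TEAD match.
Slitrk5, chr14:111428939-111429238, plus strand: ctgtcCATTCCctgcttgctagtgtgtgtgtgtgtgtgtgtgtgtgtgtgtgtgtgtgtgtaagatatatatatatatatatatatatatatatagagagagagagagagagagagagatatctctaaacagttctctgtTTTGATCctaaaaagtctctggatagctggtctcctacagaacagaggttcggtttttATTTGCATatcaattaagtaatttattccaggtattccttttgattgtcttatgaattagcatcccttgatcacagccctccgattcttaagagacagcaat
The last sequence comes from 1 of the 5 widest members, which is 99.3% soft-masked, and holds no match.
1700008P02Rik, chr3:6302412-6302711, plus strand: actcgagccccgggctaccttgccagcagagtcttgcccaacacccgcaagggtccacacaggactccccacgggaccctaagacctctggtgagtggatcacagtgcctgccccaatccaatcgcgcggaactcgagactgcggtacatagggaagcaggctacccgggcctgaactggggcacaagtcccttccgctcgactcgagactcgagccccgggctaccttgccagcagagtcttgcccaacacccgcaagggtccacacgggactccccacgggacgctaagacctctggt

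Against the gene annotation, the label held for protein-coding genes better than for noncoding ones. Of the members, 7041 (88.5%) had no protein-coding TSS of the GENCODE M21 annotation within 100 kb, with a median distance of 223 kb. Only 1523 (19.1%) were as far from a TSS of any kind, and the median distance to one was 36.3 kb. In all, 1291 members overlapped an annotated gene, among them 719 with a long intergenic noncoding RNA (lincRNA) and 294 with a protein-coding gene. By the table's own distance the median was 219 kb, with quartiles of 142 and 392 kb and a maximum of 2348 kb. The member just inside the limit, 100008 bases from Cnr1, had log2 values of 6.85, 7.37, 5.45 and 6.21 in formative DKO, formative WT, naive DKO and naive WT cells. The region just outside it, 99980 bases from Serbp1, had 8.12, 9.03, 7.43 and 3.63 in the same order.

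Gene-desert regions were as wide as other intergenic regions but richer in repeats. Their median width was 1013 bases (range 101 to 11568), against 1015 bases for intergenic regions at 5 to 100 kb and 1088 bases for all other regions. A median of 41.0% of their bases was soft-masked, against 26.9% in intergenic regions at 5 to 100 kb, 15.9% in introns beyond 100 kb and 18.5% in all other regions. In 24.5% of the members (1951 regions) over 90% of bases were soft-masked, against 2.71% of all other regions. A near-identical copy elsewhere in the genome, at 95% identity over 80% of the length, was found for 1152 members (14.5%), whose reads could map to more than 1 place. Most members stood alone: of 5706 clusters made by joining members within 12.5 kb of each other, 4484 held a single region, and 111 held 5 or more.

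Of the 7956 members, 7010 were above 0 in all 4 groups and enter the folds below, and 946 were listed at 0 in at least 1 group. The number at 0 was 332 in formative DKO, 19 in formative WT, 347 in naive DKO and 481 in naive WT cells. Which libraries' peaks made up the table is not given in the sources used here, and the part of that choice in the DKO folds was not tested. Regions nearest to the knocked-out genes do not check the deletions, since H3K27ac does not read the coding sequence: the 3 of Kmt2c had median log2 folds of -0.88 (formative) and -0.89 (naive), and the 5 of Kmt2d had -0.45 and 0.36. As a check of the states, the authors' deposited table gave the promoters of the naive markers Zfp42, Klf4 and Tbx3 DiffBind log2 folds of -4.10, -2.78 and -2.75 in formative over naive WT. Sox2, a gene of both pluripotent states, had a larger fall at its promoter than these, with -4.77 (DiffBind adjusted p 5.72e-35, the authors' deposited table). Pou3f1, a formative marker, had 1.5 with a DiffBind adjusted p of 0.439 in the authors' deposited table. The feeder, primitive endoderm and trophoblast markers had no promoter region in the table, but neither had Pou5f1 or Nanog, so other cell types could not be checked this way.

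Per base, H3K27ac at gene-desert regions was higher in WT than in DKO cells in both states, whereas promoters had the opposite order on the scale as deposited, which is set to level by a scaling on promoters. The members' median level per base was 16.81 in formative DKO, 18.16 in formative WT, 16.98 in naive DKO and 18.06 in naive WT cells, on a log2 scale. Promoters had medians of 19.25, 18.48, 19.40 and 18.76 in the same groups. Intergenic regions at 5 to 100 kb had 17.06, 18.17, 17.14 and 17.92. In DKO cells the members were thus lower than intergenic regions closer to genes, and in naive WT cells they were higher.

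**Figure D1:**
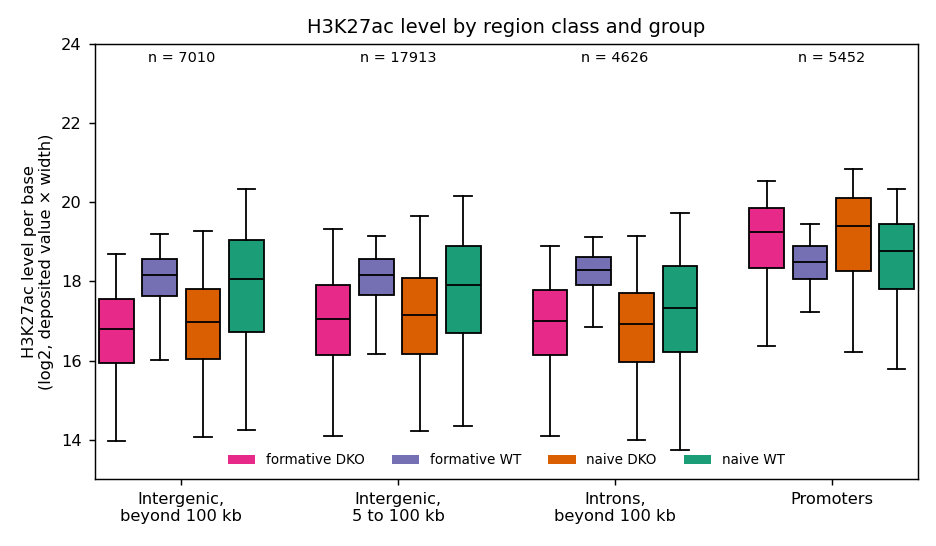
Boxes show H3K27ac per base (log2 of the deposited value times region width) in formative DKO, formative WT, naive DKO and naive WT cells for 4 classes of region above 0 in all groups; lines are medians, boxes quartiles and whiskers the 5th and 95th percentiles over regions. Gene-desert regions have medians of 16.81 and 16.98 in DKO against 18.16 and 18.06 in WT cells, and promoters 19.25 and 19.40 in DKO against 18.48 and 18.76 in WT cells.

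In formative cells, H3K27ac was at least 2-fold lower in DKO than in WT at 4094 of 7010 members (58.4%), and higher by that much at 450 (6.42%). Among all 105643 regions above 0, 39.3% were lower and 11.2% higher. The members' median log2 fold was -1.27 (quartiles -2.13 and -0.39), against -0.63 over all regions, -0.96 for intergenic regions at 5 to 100 kb, -1.21 for introns beyond 100 kb and 0.79 for promoters. In naive cells 3407 members (48.6%) were at least 2-fold lower in DKO than in WT, whereas 821 (11.7%) were higher by that much. Among all regions 26.3% were lower and 19.2% higher. The naive median was -0.95 (quartiles -1.94 and 0.08), against -0.10 over all regions, -0.62 for intergenic regions at 5 to 100 kb, -0.38 for introns beyond 100 kb and 0.58 for promoters. Distant introns were therefore close to the members in formative cells and nearer to all regions in naive cells. The members' median lay below that of all other regions on 21 of 21 chromosomes in each state. The formative medians ran from -1.68 to -1.01 over chromosomes, and the naive ones from -1.45 to -0.58.

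The scale between groups is not stated, and it moves these shares. With the median of all regions set equal between groups, 34.8% of the members were at least 2-fold lower and 14.3% higher in formative DKO cells, and 40.9% lower and 15.3% higher in naive DKO cells. With promoters set equal, 75.4% and 63.7% were lower. That scaling shifts the median of all regions by -0.63 (formative) and -0.57 (naive), and equal medians of all regions shift it by 0.77 and 0.29. A shift common to all regions leaves the members' median as far below that of all regions as before.

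Of the 7010 members, 2132 were at least 2-fold lower in both states, which is 52.1% of those lower in formative and 62.6% of those lower in naive DKO cells. These shares are near those of all members that were lower in the other state, 48.6% in naive and 58.4% in formative cells. Over all regions, 14869 were lower in both, which is 35.8% of those lower in formative and 53.4% of those lower in naive DKO cells. The 2 folds share no library, and across members they had almost no relation (Pearson r = 0.01, Spearman rho = 0.06, n = 7010). Across all other regions, which pool promoters with distal regions, r was 0.13 (n = 98633). These are descriptions across regions, whose values share the same 8 libraries.

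Single regions show the range of these differences. The member with the lowest formative fold by the naming rule lies 218 kb upstream of Nr2f2, which encodes the nuclear receptor COUP-TFII, at chr7:70583653-70584864. It overlaps the lincRNA Gm44812. H3K27ac there was 1.90 in formative DKO, 9.52 in formative WT, 4.65 in naive DKO and 6.22 in naive WT cells. H3K4me1 was 6.08, 8.05, 5.72 and 6.82 in the same groups, so both marks were lowest in DKO cells and highest in formative WT cells. A second, at chr3:22621427-22622507 and nearest to Rprl2, was 98.1% soft-masked and had 2.41 in formative DKO against 8.62 in formative WT cells. In naive cells the same region had 7.89 in DKO and 7.85 in WT, and its H3K4me1 was 6.35 in formative DKO and 6.40 in formative WT, so the difference lay in 1 mark and 1 state. Another, at chr19:6662871-6664135 and nearest to Slc22a12, had 1.92 in formative DKO and 7.81 in formative WT cells, with H3K4me1 of 6.60 and 6.97.

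In naive cells the lowest fold by the naming rule was 227 kb from Naf1, an assembly factor of box H/ACA ribonucleoproteins, at chr8:67086026-67087482. H3K27ac was 5.88 in formative DKO, 8.38 in formative WT, 1.27 in naive DKO and 8.54 in naive WT cells. H3K4me1 there was 4.93, 7.49, 5.31 and 6.78, lower in DKO in both states. A region 585 kb from 1700054K19Rik, at chr6:111625110-111626321, had a like pattern, with H3K27ac of 6.54, 8.85, 2.41 and 8.94 in the same groups. The region 779 kb from Tle1, a Groucho-family corepressor gene, at chr4:71421213-71422805, was instead high in naive WT cells alone. Its values were 5.40 in formative DKO, 4.21 in formative WT, 3.67 in naive DKO and 9.95 in naive WT cells.

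A minority of members had more H3K27ac in DKO than in WT cells, and those named by the rule were low in the matching WT state. The region 159 kb from Trp63, which encodes the p53 relative p63, at chr16:25524357-25525616, had 7.02 in formative DKO and 1.19 in formative WT cells. In naive cells it had 7.83 in DKO and 8.42 in WT, so its value stayed high in formative DKO cells where it was near 0 in formative WT cells. The region 874 kb from the cadherin gene Cdh6, at chr15:14047351-14048610, was likewise at 8.07 in formative DKO and 2.37 in formative WT cells, and at 9.59 and 9.12 in naive DKO and naive WT cells. In naive cells, the region 205 kb from Meis2, a homeobox gene, at chr2:115859218-115860702, had 8.27 in DKO and 3.59 in WT, and 8.17 and 8.06 in formative DKO and formative WT cells. GENCODE places another TSS of Meis2 8907 bases from it, so it is far from the gene only by the table. The region 139 kb from Tshz2, a zinc-finger gene, at chr2:169492436-169494426, had 7.19 in naive DKO and 2.47 in naive WT cells. H3K4me1 differed less than H3K27ac at these 4 regions: at Tshz2 it was 5.54 in naive DKO and 5.42 in naive WT cells, and at Trp63 5.16 in formative DKO and 4.86 in formative WT cells.

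Repeat content went along with the naive fold but hardly with the formative one. Among members with at most 10% of bases soft-masked, the median log2 fold of DKO over WT was -1.50 in formative and -0.37 in naive cells (n = 976). In members over 90% soft-masked it was -1.37 in formative and -1.40 in naive cells (n = 1890). Between these, members over 10 to 50% soft-masked had -1.14 and -0.73, and those over 50 to 90% had -1.12 and -0.97. All other regions had naive medians of 0.18, -0.05, -0.48 and -1.20 from the lowest to the highest class, so that the members lay below them in each class and nearest to them in the last. The formative medians of all other regions were -0.68, -0.50, -0.69 and -1.25. Intergenic regions at 5 to 100 kb were nearer to the members in each class. Their naive medians were -0.19, -0.55, -0.87 and -1.27, and their formative medians -1.23, -0.80, -0.96 and -1.31. One of the widest members, at chr3:6297109-6308013 and nearest to 1700008P02Rik, is 99.3% soft-masked and had 3.901 in formative DKO, 6.08 in formative WT, 4.64 in naive DKO and 9.12 in naive WT cells. It was lowest in DKO cells, and its H3K4me1 was 2.73, 3.26, 2.66 and 3.63 in the same groups. The part of mapping to repeats in these values was not tested. Among members with no near-identical copy the medians were -1.32 and -0.93.

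**Figure D2:**
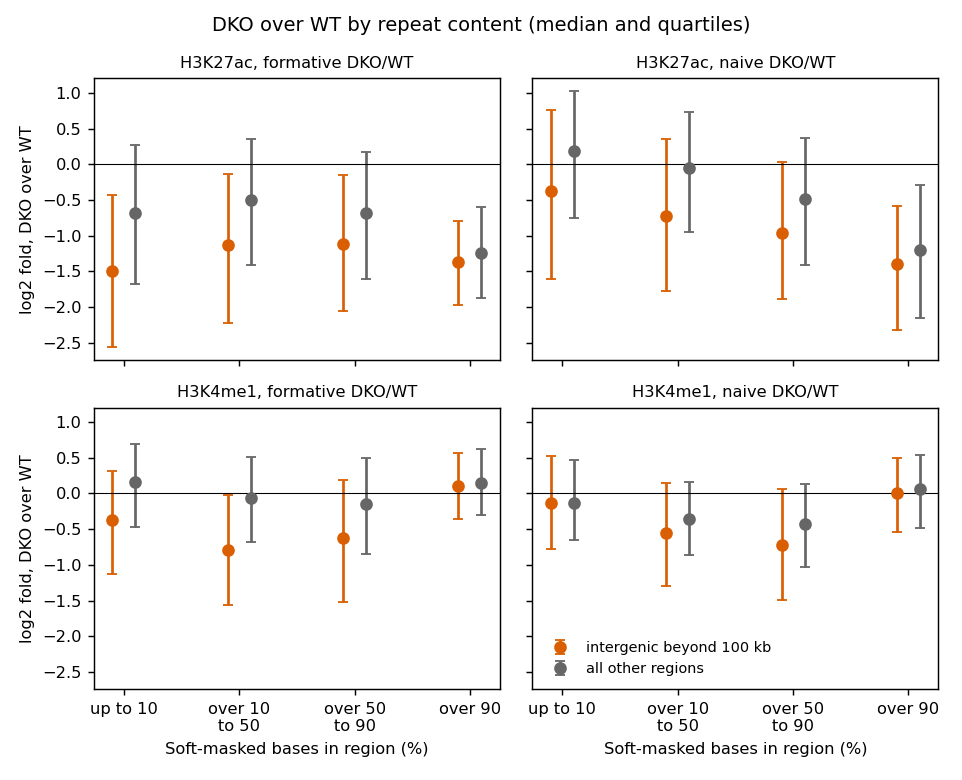
Points are medians and bars quartiles over regions of the log2 fold of DKO over WT, for H3K27ac (top) and H3K4me1 (bottom) in formative (left) and naive (right) cells, by the share of soft-masked bases; orange is gene-desert regions and grey all other regions. The naive H3K27ac medians of gene-desert regions go from -0.37 to -1.40 with repeat content, while H3K4me1 in the highest class is at 0.11 (formative) and 0.01 (naive).

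Distance beyond 100 kb added little in formative cells. The formative medians of DKO over WT were -1.24, -1.31, -1.25, -1.32, -1.27 and -1.22 for members at 100 to 150, 150 to 200, 200 to 300, 300 to 500, 500 to 1000 and over 1000 kb. The naive medians were -0.84, -0.90, -0.98, -0.996, -1.04 and -1.27 in the same bins. The median soft-masked share went with distance, being 27.3% at 100 to 150 kb and 81.2% over 1000 kb. These bins do not hold repeat content fixed, and its part in the naive medians by distance was not tested. Members with no TSS of any GENCODE gene within 100 kb had medians of -1.32 (formative) and -1.04 (naive, n = 1345), against -1.26 and -0.93 for the others.

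**Figure D3:**
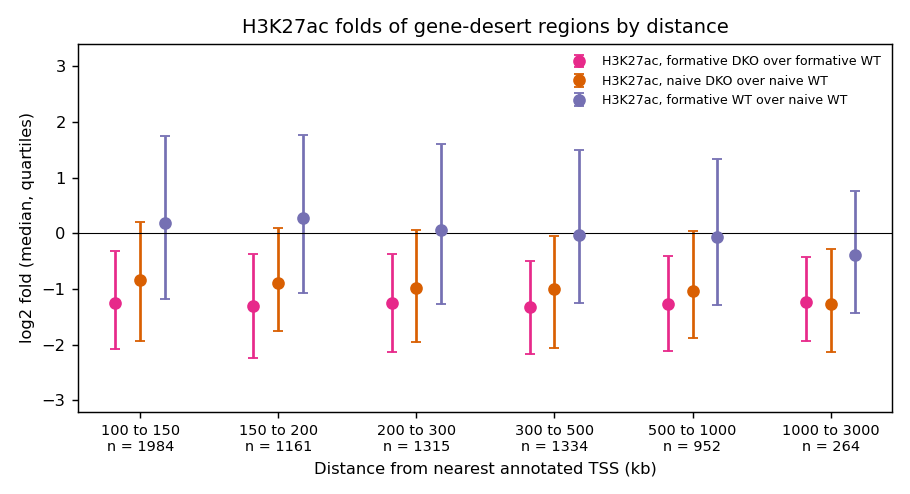
Points are medians and bars quartiles over gene-desert regions of 3 log2 folds of H3K27ac, by distance from the nearest annotated TSS in kb. Formative DKO over WT stays between -1.32 and -1.22, naive DKO over WT goes from -0.84 to -1.27, and formative over naive WT goes from 0.19 to -0.39.

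The members were also below the rest of the table at like signal, though not always below the classes of region most like them. In 6 classes of DiffBind concentration in the authors' deposited table, a mean log2 read count over the WT libraries, the members' median DKO over WT was below that of all other regions in each class and state. At a concentration over 6 to 7 the medians were -1.03 for members and -0.45 for all other regions in formative cells, and -1.11 and -0.13 in naive cells. At over 8 to 10 they were -0.82 and 0.24 in formative cells, and -1.91 and -0.09 in naive cells. In the weakest class, over 4 to 5, they were -1.95 and -1.54 in formative cells, but 0.57 and 0.91 in naive cells. Introns beyond 100 kb were close to the members in formative cells at a concentration over 6 to 7, with -1.01 against -1.03. At over 7 to 8 and over 8 to 10 they had -0.76 and -0.35, where members were lower at -1.08 and -0.82. In the strongest class, over 10 to 20, the naive median was -1.26 for members (n = 71), and it was lower in intergenic regions at 5 to 100 kb (-1.30) and in introns beyond 100 kb (-1.94, n = 24). These classes are set by WT libraries, which are also the denominator of the folds.

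H3K4me1, measured in libraries outside this series, was lower in DKO cells at part of the members. Of 7911 members above 0 in all 4 groups for this mark, 2426 (30.7%) were at least 2-fold lower in formative DKO than in formative WT cells, whereas 598 (7.56%) were higher by that much. Among all regions 16% were lower and 10.5% higher. In naive cells 2191 members (27.7%) were at least 2-fold lower, whereas 598 (7.56%) were higher by that much, where all regions had 18.7% and 4.99%. The median log2 fold was -0.39 in formative cells, against -0.02 over all regions, and -0.33 in naive cells, against -0.30 over all regions. Intergenic regions at 5 to 100 kb had medians of -0.40 in formative and -0.37 in naive cells, with 26.3% and 24.005% at least 2-fold lower, and introns beyond 100 kb had medians of -0.32 and -0.31. By its median, the H3K4me1 fold was thus not particular to gene deserts. Members over 90% soft-masked had a median near 0, at 0.11 in formative and 0.01 in naive cells, where their H3K27ac medians were -1.37 and -1.40. All other regions over 90% soft-masked had like values, at 0.15 and 0.06 for H3K4me1 and -1.25 and -1.20 for H3K27ac.

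The 2 marks moved together only loosely. Of 4073 members at least 2-fold lower in H3K27ac in formative DKO cells, 1303 (32.0%) were also at least 2-fold lower in H3K4me1, against 700 of 2459 (28.5%) of those within 2-fold. In naive cells the shares were 1220 of 3397 (35.9%) and 687 of 2768 (24.8%). Across members, the DKO over WT folds of the marks had a Pearson r of 0.06 in formative and 0.26 in naive cells (Spearman 0.06 and 0.25, n = 6982). All other regions had 0.24 and 0.27 (n = 98554). The relation was thus weaker among members than among other regions in formative cells, and alike in naive cells.

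**Figure D4:**
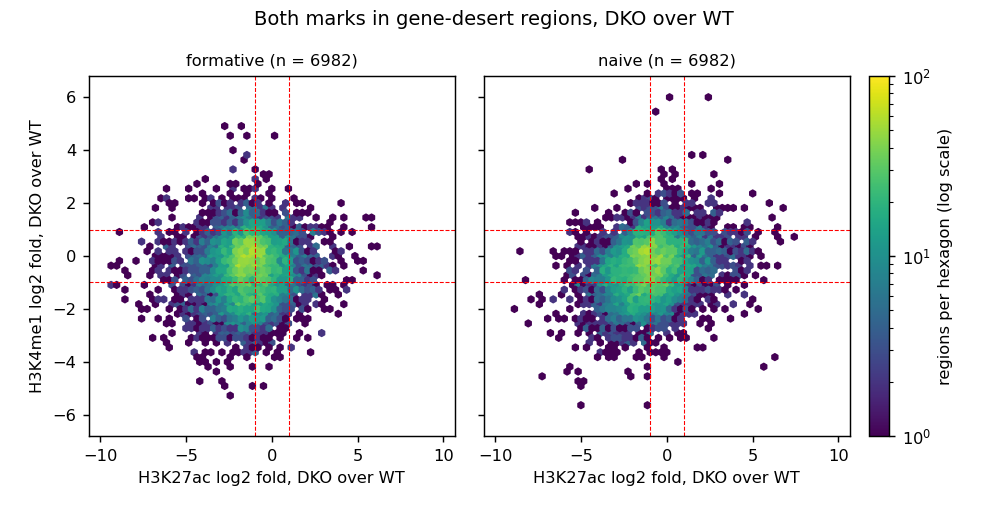
Hexagons count gene-desert regions (log colour scale) by the log2 fold of DKO over WT in H3K27ac (horizontal) and H3K4me1 (vertical), in formative and naive cells; dashed lines mark 2-fold. The clouds centre below 0 on the horizontal axis, where the members' medians were -1.27 and -0.95, and the tilt is weaker in formative (r = 0.06) than in naive cells (r = 0.26).

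Between the WT states, gene-desert regions changed in both directions. In the authors' deposited table, 1712 members (21.5%) rose and 1811 (22.8%) fell in formative over naive WT at a DiffBind Benjamini-Hochberg adjusted p under 0.05. Over all regions of that table, 20.8% rose and 15.8% fell, so the share of rising members was close to the background and that of falling ones above it. Intergenic regions at 5 to 100 kb had 20.3% and 21.5% in the authors' deposited table, close to the members, whereas introns beyond 100 kb had 27.6% and 11.6%. In the authors' deposited table the median log2 fold was 4.06 for rising and -2.29 for falling members, against 3.04 and -1.98 over all regions. Intergenic regions at 5 to 100 kb had 3.55 and -2.34 there, and introns beyond 100 kb 3.56 and -2.19. Rising members had a low signal, with a median DiffBind concentration of 5.04 against 5.65 for all rising regions of that table. Falling members were wider than rising ones (median 1447 against 816 bases for rising) and more of their bases were soft-masked (51.2% against 21.6% for rising). Of members with at most 10% of bases soft-masked, 34.0% rose and 11.3% fell, and of those over 90% soft-masked 7.996% rose and 22.3% fell. All other regions had 24.5% rising and 8.09% falling in the lowest class, and 8.87% and 21.5% in the highest, where the members were thus near the background. The contrast in width and repeats is likewise general: over all regions the falling ones had a median of 1722 bases and 27.1% soft-masked, and the rising ones 1044 bases and 15.6%.

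The regions named for the WT states are those with the smallest adjusted p among members at least 1000 bases wide. Near Efnb2, which encodes the ephrin-B2 ligand, the region at chr8:8486799-8490406 lies 173 kb from the TSS and overlaps the lincRNA D530014G21Rik. GENCODE places a TSS of that lincRNA 300 bases from the middle of the region. It had 8.12 in formative DKO, 8.70 in formative WT, 6.44 in naive DKO and 5.14 in naive WT cells, with a log2 fold of 3.76 and an adjusted p of 2.41e-49 from DiffBind in the authors' deposited table. The region 125 kb from Nipbl, the cohesin loader gene, at chr15:8568264-8570565, had 6.48, 8.46, 5.67 and 3.65 in the same groups, with a log2 fold of 5.10 (adjusted p 5.61e-23, DiffBind, the authors' deposited table). GENCODE places a protein-coding TSS, that of Gm2310, 49461 bases from this region. Among falling regions, the one 735 kb from Chordc1, an HSP90 co-chaperone gene, at chr9:17555603-17559053, had 7.63 in formative DKO, 4.23 in formative WT, 9.43 in naive DKO and 9.96 in naive WT cells. Its log2 fold was -5.83 with an adjusted p of 2.09e-85 in the authors' deposited table (DiffBind). The region 600.4 kb from Gm20268, at chr1:101753936-101758349, had 5.21, 4.46, 6.89 and 9.16, with a log2 fold of -4.65 and an adjusted p of 1.62e-106 from DiffBind in the authors' deposited table. At both falling regions the formative DKO value lay between those of formative WT and naive DKO cells.

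In DKO cells the members differed less between the states by the pooled values at 2-fold, a measure unlike the DiffBind calls above. By it, 33.5% of the members were higher and 28.3% lower in formative WT than in naive WT cells. Of 7010, 1151 (16.4%) had at least 2-fold more H3K27ac in formative DKO than in naive DKO, and 1742 (24.9%) had at least 2-fold less, with a median of -0.22. All regions had 16.6% higher, 17.9% lower and a median of -0.07, and by the same measure 38.1% and 18.9% between the WT states. Intergenic regions at 5 to 100 kb had 18.6% and 24.2% between the DKO states, and 36.5% and 26.0% between the WT states. The smaller DKO difference was thus not particular to gene deserts. Members that rose between the WT states by the authors' deposited table had a median of 0.35 between the DKO states, where 30.9% were at least 2-fold higher. Those that fell between the WT states had a median of -0.73 in DKO cells, where 39.6% were at least 2-fold lower. Only members above 0 in all groups enter here, 1088 of 1712 rising and 1766 of 1811 falling. These DKO values share no library with the WT test.

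Set against WT, the rising and falling members stood apart by state. The 1088 rising members above 0 in all groups had median DKO over WT folds of -1.99 in formative and 0.91 in naive cells. The 1766 falling ones had -0.25 and -1.85. Members not called had -1.37 and -0.91 (n = 4156). The need to be above 0 left out more of the 1712 rising than of the 1811 falling members. Values of 0 were most frequent in naive WT cells (481 members), the denominator of the naive fold. The state in which each set was highest in WT cells was the state of the lower DKO fold, but these classes and folds share the WT libraries, so that this order is in part given by the choice. H3K4me1, which shares none of them, was lower in naive DKO cells at the falling members (median -0.99, with 49.3% at least 2-fold lower) than at the rising ones (-0.03 and 16.3%). In formative cells its medians were -0.58 for falling and -0.54 for rising members.

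Among single loci, the interval upstream of Sall1 held 22 members, 113 to 533 kb from the TSS at chr8:89156484-89577028. Sall1 encodes a zinc-finger transcription factor made in embryonic stem cells. Over the 22 regions H3K27ac ran from 0 to 8.12 in formative DKO (median 5.65), from 6.53 to 9.82 in formative WT (8.66), from 0 to 9.02 in naive DKO (5.41) and from 0 to 10.57 in naive WT cells (7.32). Of the 16 above 0 in all groups, 14 were at least 2-fold lower in formative DKO and 12 in naive DKO than in the matching WT cells. None of these 16 was 2-fold higher. The shares lower were 58.4% and 48.6% over all members, and 39.3% and 26.3% over all regions. Of the regions left out, 2 were at 0 in formative DKO, 3 in naive DKO and 1 in naive WT cells. The last, at chr8:89571522-89572373, had 5.51 in naive DKO cells. The region nearest to the TSS, at chr8:89156484-89158336, had 4.53 in formative DKO, 7.89 in formative WT, 5.90 in naive DKO and 9.10 in naive WT cells. Its H3K4me1 was 5.46, 7.22, 4.86 and 7.19, low in DKO cells in both states. In H3K4me1, 12 of the 22 were at least 2-fold lower in formative DKO and 8 in naive DKO cells, against 30.7% and 27.7% of all members. The authors' deposited table had 4 of the 22 rising and 2 falling between the WT states, against 21.5% and 22.8% of all members. Chromosome 8 itself had lower DKO values: its other regions, outside gene deserts, had medians of -1.10 in formative and -0.43 in naive cells, against -0.59 and -0.05 for all such regions. The part of this in the Sall1, Efnb2 and Naf1 values was not tested.

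Nr5a2, the gene of a nuclear receptor of naive pluripotency, had 7 members, all 196 to 501 kb upstream. By the authors' deposited table, 4 of them fell and 1 rose between the WT states, where 22.8% of all members fell and 21.5% rose. The region at chr1:137417972-137418895 had 6.32 in formative DKO, 5.57 in formative WT, 9.45 in naive DKO and 10.42 in naive WT cells, with a log2 fold of -4.93 and an adjusted p of 3.09e-19 from DiffBind in the authors' deposited table. The adjacent pair at chr1:137173778-137174919 and chr1:137175547-137176348 behaved otherwise in DKO cells. The first had 8.05 in formative DKO, 5.31 in formative WT, 7.85 in naive DKO and 9.24 in naive WT cells, and the second had 7.48, 3.89, 7.14 and 9.07. At this pair H3K27ac was thus higher in formative DKO than in formative WT cells and lower in naive DKO than in naive WT cells. H3K4me1 at the first was nearly level, at 7.69, 7.73, 7.52 and 7.599. At the second it was 6.93, 6.92, 7.02 and 8.14, highest in naive WT cells.

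Mycn, a MYC-family transcription factor gene, had 6 members at 101 to 132 kb on either side of its TSS. The 2902-base region at chr12:12818929-12821829 had 4.59 in formative DKO, 5.23 in formative WT, 6.28 in naive DKO and 8.54 in naive WT cells. The authors' deposited table gave it a log2 fold of -3.46 with an adjusted p of 5.77e-31 (DiffBind). Its H3K4me1 was 5.27, 6.51, 5.33 and 6.505, lower in DKO cells and level between the states. Of the other 5, the region at chr12:12810117-12811415 was level in H3K27ac, at 8.28, 7.83, 7.90 and 8.04. Klf4, a Krüppel-like factor gene of naive pluripotency, had 3 members, of which the one at chr4:55721488-55722222 was listed at 0 in naive WT cells, with 8.21 in formative DKO, 9.22 in formative WT and 8.76 in naive DKO cells.

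**Figure D5:**
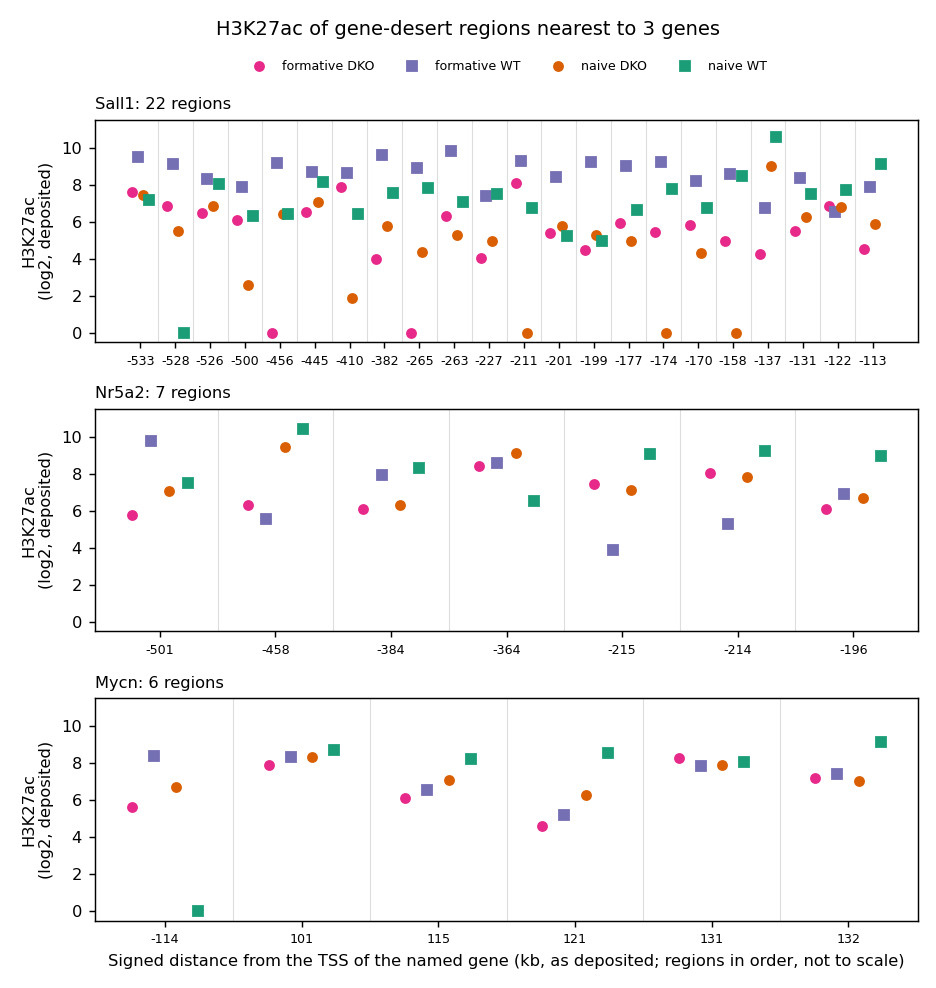
Points give the deposited log2 H3K27ac of every gene-desert region nearest to Sall1 (22), Nr5a2 (7) and Mycn (6) in formative DKO, formative WT, naive DKO and naive WT cells, ordered by signed distance from the TSS in kb. At Sall1 the medians are 5.65 and 5.41 in DKO against 8.66 and 7.32 in WT cells, and at the pair of Nr5a2 regions near -214 kb formative WT is the lowest of the 4 groups.

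By gene lists, which were chosen with earlier results known, a member belongs to the nearest gene. Of 41 developmental regulators 23 had members, 76 in all, and the authors' deposited table had 25 of these rising and 10 falling in WT cells (DiffBind). Of the 64 above 0 in all groups, 44 (68.8%) were at least 2-fold lower and 5 (7.81%) higher in formative DKO cells. There 39.3% of all regions and 58.4% of all members were lower. In naive DKO cells 23 (35.9%) were lower and 13 (20.3%) higher, where 26.3% of all regions and 48.6% of all members were lower. The medians were -1.67 and -0.31. The region 493 kb from Nr2f1, at chr13:78690902-78692185, fell in WT cells by the authors' deposited table (DiffBind log2 fold -7.13, adjusted p 1.3e-23), with 4.42 in formative DKO, 3.25 in formative WT, 7.06 in naive DKO and 9.83 in naive WT cells. Genes of cell adhesion known for flanking deserts held 126 members, of which the authors' deposited table had 28 rising and 31 falling. Of the 114 above 0, 69 (60.5%) were at least 2-fold lower and 6 (5.26%) higher in formative DKO cells. In naive DKO cells 56 (49.1%) were lower and 15 (13.2%) higher (medians -1.37 in formative and -0.97 in naive cells). These shares lower are near those of all members, 58.4% and 48.6%. Near Slitrk5, a synaptic adhesion gene, the region at chr14:111427489-111430687 had 6.65, 6.30, 7.07 and 9.44 for H3K27ac in formative DKO, formative WT, naive DKO and naive WT cells. Its H3K4me1 was 2.60, 5.72, 2.96 and 5.32, so H3K4me1 was low in DKO cells in both states where H3K27ac was lower in naive DKO cells alone.

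The pluripotency lists held fewer members. Genes of naive pluripotency had 22, with 5 rising and 7 falling between the WT states in the authors' deposited table. Of the 18 above 0, 6 (33.3%) were at least 2-fold lower and 3 higher in formative DKO cells, and 11 (61.1%) were lower and 2 higher in naive DKO cells. The matching shares lower were 58.4% and 48.6% of all members, and 39.3% and 26.3% of all regions. Near Klf5, a naive pluripotency factor gene, the region at chr14:99509832-99511303 had 5.38 in formative DKO, 6.34 in formative WT, 6.82 in naive DKO and 9.23 in naive WT cells. Core pluripotency genes had 30 members, 22 of them those of Sall1, with 5 rising and 6 falling in the authors' deposited table, with 15 of 23 above 0 (65.2%) at least 2-fold lower in formative DKO and 17 (73.9%) in naive DKO cells, and none higher. Formative pluripotency genes had 19, with 6 rising and 5 falling in the authors' deposited table, with 9 of 17 above 0 (52.9%) at least 2-fold lower in formative DKO and 5 (29.4%) in naive DKO cells, and 2 higher in each. For Lef1, a TCF/LEF factor gene, the only member was listed at 0 in both naive groups and had 3.01 in formative DKO and 9.29 in formative WT cells.

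Of the nearest genes with most members, 1810013L24Rik had 46, 1700030C10Rik 41, 5730507C01Rik 36, Gm10324 35 and Efnb2 32. They were followed by 2410141K09Rik with 29, Pcmtd1 with 27, 6820431F20Rik and Rpia with 26 each, and the metalloprotease gene Adamts9 with 25. A near-identical copy was found for 23 members of 1700030C10Rik, 28 of 5730507C01Rik, 35 of Gm10324, 26 of 2410141K09Rik and 23 of 6820431F20Rik. Rpia had 11 such members, Pcmtd1 6, Efnb2 3, and 1810013L24Rik and Adamts9 had 0. Of the 32 of Efnb2, spread over 108 to 1721 kb, 15 rose and none fell between the WT states in the authors' deposited table (DiffBind adjusted p under 0.05). Of the 28 above 0 in all groups, 21 were at least 2-fold lower in formative DKO and 8 in naive DKO cells, while 8 others were higher by that much in naive DKO cells. Of the 46 of 1810013L24Rik, 3 rose and 18 fell in that comparison by the authors' deposited table. On chromosome 12, 5730507C01Rik had 36 members, of which 23 fell by the authors' deposited table, and 15 of 34 above 0 were at least 2-fold higher in formative DKO cells. Over all members 6.42% were higher and 58.4% lower in formative DKO cells, and 11.7% higher and 48.6% lower in naive DKO cells. Over all regions the shares were 11.2%, 39.3%, 19.2% and 26.3% in the same order. In the authors' deposited table, 21.5% of all members rose and 22.8% fell, against 20.8% and 15.8% of all regions. RNA of the nearest gene, from libraries outside this series, hardly went with H3K27ac of the members. Across 644 genes with 2548 members, the gene's median H3K27ac fold and its RNA fold had a Pearson r of 0.07 for formative DKO over WT and 0.08 for naive DKO over WT.

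In the central 300 bases, the SOX letters were found in 6.03% of the members and 4.13% of all regions, and the octamer in 2.40% and 1.46%. OTX2 letters were in 6.93% and 11.0%, KLF in 2.21% and 3.37%, and GATA in 12.96% and 12.2%. TEAD was in 16.6% and 15.6%, AP-1 in 8.65% and 8.89%, TCF/LEF in 3.22% and 3.02%, ESRRB in 0.63% and 0.94%, and GRHL in 0.10% and 0.09%. By the WT calls in the authors' deposited table, the SOX letters were in 6.13% of rising, 10.8% of falling and 4.04% of other members. The OTX2 letters were in 8.76%, 6.79% and 6.27% of the same sets. Members over 90% soft-masked held the SOX letters in 1.90%. A match of letters is a description of sequence and no evidence of binding.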

How the data were processed

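H3K27ac CUT&Tag values came from 1 table of the whole series, on the mm10 build. Trim Galore, Bowtie2, SEACR, DiffBind and deepTools are named in the submitters' processing notes, with no role or version given. The authors deposited log2(value + 1) per region and group, pooled over 2 libraries, and how groups were scaled to each other is not stated there. The depth is unknown, so no counting interval was computed. A regression put the deposited H3K27ac log2 value at -1.98 (naive WT) and -2.00 (formative WT) per log2 of width, as for a sum divided by the square of width, so 1 division was undone for levels per base. Folds within a region do not depend on this. H3K4me1 and RNA log2 values in the authors' deposited table come from libraries outside this series. Distance to the TSS and width are other measures in the authors' table, in bases. The DiffBind p-value and its Benjamini-Hochberg adjusted value, formative against naive WT, are the authors' own and were deposited in the same table. Another 14 columns of values were not used.

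Members above 0 in all 4 groups were compared by differences of log2 values, and called at 2-fold, with no test. For the WT states a member was called at a DiffBind adjusted p under 0.05. The members and the gene lists were chosen with earlier results of these data known. Genes were named by a rule: members at least 1000 bases wide and above the members' median signal with the largest folds or smallest adjusted p, 1 per nearest gene, the widest members, the genes with most members, every member of some pluripotency genes, and up to 4 members per list.

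Sequence, soft-masking and motifs were read from RefSeq GRCm38.p6 with pysam 0.24.0 and samtools 1.23.1. Copies were sought with minimap2 2.31-r1302. Genes were checked against GENCODE M21. Python 3.11.15, numpy 2.4.6, pandas 2.3.3 and matplotlib 3.10.9 were used, and the code was tested on simulated data. Alternatives were other scalings, filters on signal, width, distance, chromosomes, repeats and copies, and other call rules.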

Additional observations from a re-analysis of the deposited data

How the results depend on the processing

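Of 90 shares of members recomputed, 77 stayed within 1.5 times the value reported and 13 did not. In formative DKO over WT, the share lower (58.4%) became 34.8% with medians of all regions set equal and 36.3% with quantile normalization, and the share higher (6.42%) became 14.3% and 15.6%, 3.44% with promoters set equal, and 9.87% for members above the median signal. In naive DKO over WT, the share higher (11.7%) became 7.46% with promoters set equal, 6.37% above the median signal and 6.95% at 1000 bases or wider. In formative over naive DKO, the share higher (16.4%) became 9.62% above the median signal, and the median became 0.0585 with sums set equal, against -0.22. Between the WT states, the share rising (21.5%) became 33.5% by pooled values and 14.3% at 1000 bases or wider, where the share falling (22.8%) became 34.5%. The formative DKO over WT fold of the region nearest to Gm26851 became 0.25 with quantile normalization. The cause was not tested. The members' medians of DKO over WT stayed below 0 under every alternative run, at -1.90 to -0.51 in formative and -1.52 to -0.64 in naive cells. The filters on repeats (at most 50% soft-masked) and copies were chosen after seeing the data. At an adjusted p under 0.01, 8 named members lost their DiffBind call, 3 of them at Sall1.

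No paired analysis was possible because the table holds 1 pooled value per group, and leaving out each replicate was not run for the same reason.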

Other observations

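The nearest gene Gm10324, on chromosome 13, had 35 members at chr13:65742442-66267133, each with a near-identical copy elsewhere, so that reads could be shared between them. Their median H3K27ac was 5.23 in formative DKO, 7.30 in formative WT, 5.55 in naive DKO and 9.30 in naive WT cells. Their median H3K4me1 was 4.197, 5.85, 4.03 and 7.21 in the same groups, lowest in DKO cells for both marks. H3K4me1 was at least 2-fold lower in 27 of 35 in formative DKO and 34 of 35 in naive DKO cells. The shares over all members were 30.7% and 27.7%, and over all regions 16% and 18.7%. Of the 31 above 0 in all groups, both marks were at least 2-fold lower in 19 in formative and 27 in naive DKO cells. Over all members above 0 for both marks, both were lower in 1303 of 6982 in formative and 1220 of 6982 in naive DKO cells. For both marks together no share over all regions is given here. For H3K27ac alone, 39.3% and 26.3% of all regions were at least 2-fold lower. By the authors' deposited table, 28 of the 35 fell and none rose between the WT states (DiffBind adjusted p under 0.05). In the same comparison 22.8% of all members fell and 21.5% rose, and 15.8% and 20.8% of all regions.

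Some members had very high values of both marks in all groups, and were chosen after their values were seen. Nearest to Lrrc4c, the region at chr2:98666226-98667356 had H3K27ac of 19.42 in formative DKO, 19.70 in formative WT, 19.70 in naive DKO and 20.76 in naive WT cells. Its H3K4me1 was 18.02, 17.77, 17.74 and 18.49. The members' median H3K4me1 was 5.75, 6.20, 5.68 and 6.07 in the same groups. Of this region's bases 81.2% are soft-masked, and the part of mapping to repeats in its values was not tested. GENCODE places the protein-coding gene Gm10800 over it, with a TSS 510 bases away. By that annotation it is far from a gene only by the table.

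Outside gene deserts, chromosomes 6 and 8 had lower median folds of DKO over WT than the other autosomes. These were -0.97 and -1.10 in formative cells, and -0.44 and -0.43 in naive cells, where all such regions had -0.59 and -0.05.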
